A study of Mus musculus with 3 samples.

Results

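The comparison set the open chromatin of epididymal white fat cells (eWAT) against that of inguinal white fat cells (iWAT), with 1 DNase-seq library from each. The members were chosen by the authors' normalized tag counts: each deposited list, of 60974 sites in eWAT and 63214 in iWAT, was cut to the sites with the most tags. The length kept was that of the shortest list of the series, from brown fat (BAT). Sites that overlapped by 1 bp or more were paired, which gave 28253 shared pairs. Strong sites, meaning the 25% of a cut list with the most tags, were called distant if the cut list of the other depot held no site within 1 kb. There were 441 distant sites in eWAT and 638 in iWAT. The 3 lists of the series held 172496 sites in all, and apart from the length of its list brown fat took no part in the choice of sites.

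DNase I cuts DNA where nucleosomes are absent or loose, so places dense in sequenced cut ends (tags) mark promoters, enhancers and other regulatory elements that are open in a cell. Epididymal fat is a visceral depot beside the testis, and inguinal fat is a subcutaneous depot in the groin. Both store lipid, but they arise from separate precursor pools, and subcutaneous white fat is known to take on features of brown fat more readily than visceral fat does.

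All groups were cultures of stromal-vascular cells, the fraction of fat tissue that holds the precursors, from male NMRI mice aged 4 to 5 weeks. They differed by depot: epididymal, inguinal, or brown fat pooled from interscapular, cervical and axillary pads. Every culture received 30 nM insulin, 10% newborn calf serum and 1 µM rosiglitazone, an activator of the fat cell regulator PPARγ, and was taken on day 8. The labels state that cultures had to be more than 50% differentiated and that 120 U/ml DNase I was applied. The share reached in each culture is not given, so the cells may have been mixed. Since each depot gave a single library, the spread between replicates is not known and no test between depots was made. All intervals are exact at 95% (Clopper-Pearson for shares). They hold the error of counting alone, and sites near each other are not independent counts.

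One tag was worth 0.595 normalized tags in eWAT and 0.985 in iWAT, so that tag counts per site could be read back. A brown fat tag was worth 0.857. The total used for scaling is not given, so library size and background were not derived from these values. The cut lists had a median of 18 tags per site in eWAT and 17 in iWAT. The weakest site kept had 12 tags in eWAT and 10 in iWAT. At that limit 3363 of 5630 eWAT sites with the same count were kept, and 841 of 5913 in iWAT. Tag density over the surroundings had a median of 7.84-fold in eWAT and 10.5-fold in iWAT, with 9.23-fold in BAT. The lists are in the mouse build mm9. No mm9 gene annotation or genome was used here, so sites are given by position, no site is assigned to a gene, and the labelled cell type was not checked against marker genes.

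The first question was how many sites the white depots have in common. With lists of equal length, 58.5% of the sites of either depot (95% interval 58.0 to 58.9) overlapped a site of the other. The share followed the strength of the site. Of the 10% of sites with the most tags, 89.4% in eWAT and 89.0% in iWAT were shared. Of the 10% with the fewest, 28.6% and 31.9% were shared. Among strong sites, 83.6% in eWAT (82.9 to 84.2) and 82.6% in iWAT (81.9 to 83.2) had a partner. The brown fat list, of which only the length was used in the choice, held a site at 89.3% of the top 10% of eWAT sites and 88.7% of those of iWAT. It held one at 28.1% and 30.8% of the lowest 10%. Sites of few tags in 1 white depot were thus listed in the other libraries less often than strong ones.

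**Figure D1:**
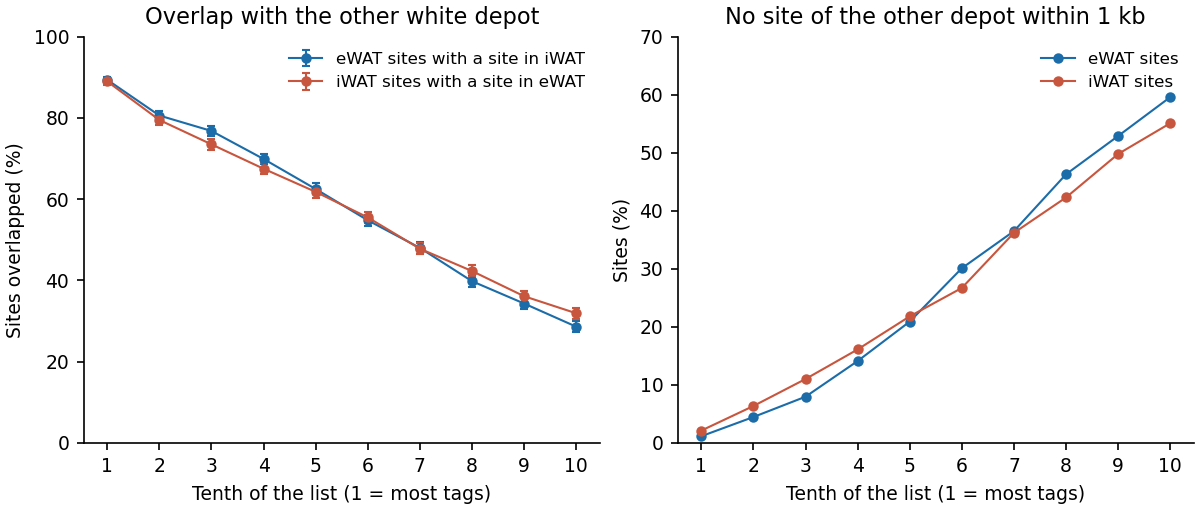
Share of sites overlapped by the other white depot (left, with exact 95% intervals) and share with no site of the other depot within 1 kb (right), in percent, for each successive 10% of the cut eWAT (blue) and iWAT (red) lists, from most to fewest tags. Overlap falls from 89.4% to 28.6% in eWAT and from 89.0% to 31.9% in iWAT, while the share of distant sites rises to 59.6% and 55.1%.

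Paired sites lay close upon each other, which the pairing rule sets in part. The centres of a pair were a median of 38 bp apart, and 60.0% were within 50 bp. Each site was 220 bp wide in eWAT and of nearly the same width in iWAT, so sites that overlap cannot have centres more than about 220 bp apart.

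The second question was which shared sites change their standing between the depots. Each site was given a percentile rank in its own cut list (100 for the most tags, ties sharing their mean rank), and the rank change is the eWAT rank minus the iWAT rank. Ranks do not depend on how a library was scaled. A pair called higher in a depot thus had a higher rank there, which need not be a higher normalized tag count. Across the 28253 pairs the ranks were related (Spearman's rho 0.69, a description across sites that share their libraries). The middle 50% of rank changes ran from -11.6 to 13.1 points. A rank at least 25 points higher in eWAT was seen in 3768 pairs (13.3%), and at least 25 points higher in iWAT in 3304 (11.7%). At 50 points the numbers were 655 (2.32%) and 641 (2.27%). The larger number for eWAT was not stable: with ranks taken among shared pairs only, 3438 pairs were higher in eWAT and 3586 in iWAT.

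**Figure D2:**
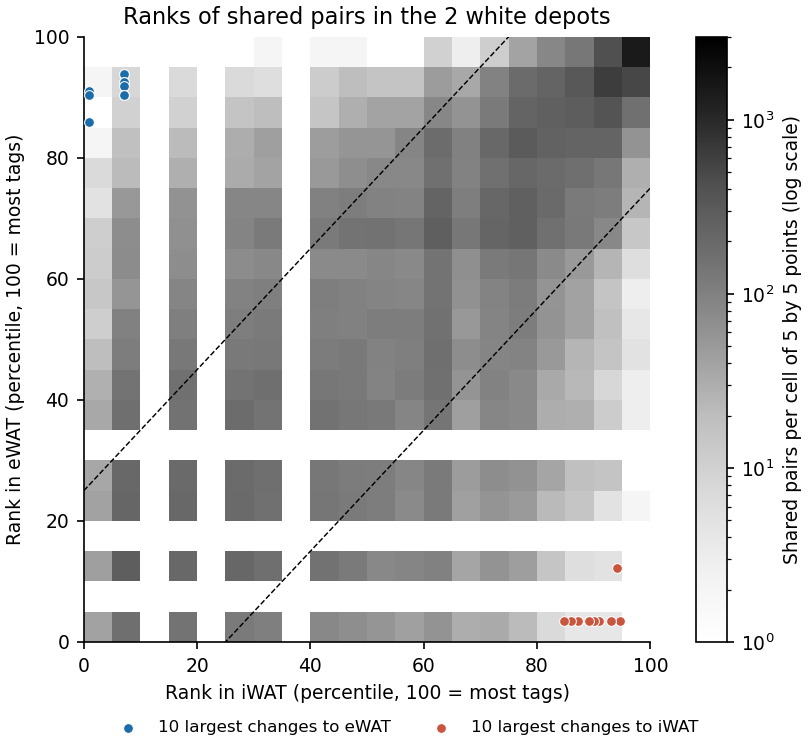
Rank of each of the 28253 shared pairs in iWAT (horizontal) and eWAT (vertical), in percentiles of the cut lists, with darker cells holding more pairs (log scale) and empty stripes where tied tag counts leave no rank. Dashed lines mark a change of 25 points, beyond which lie 3768 pairs towards eWAT and 3304 towards iWAT, and coloured points are the 10 largest changes in each direction.

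Large rank changes belonged to pairs of medium strength. Among the 9024 pairs whose mean rank was above 75, 90 were at least 25 points higher in eWAT and 110 in iWAT, together 2.22%. Among the 7599 pairs with a mean rank between 25 and 50, 48.7% changed by 25 points or more. Ranks near the top leave little room to change, and in the middle a few tags move a site far: a pair 25 points or more higher in eWAT had a median of 22 tags there against 13 in iWAT. A pair higher in iWAT had a median of 21 tags there against 14 in eWAT. These are tags as counted, and a tag was worth fewer normalized tags in eWAT than in iWAT.

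The tag counts behind these ranks are small, so the error of counting was set beside them. The ratio of eWAT to iWAT tags had a median of 1.08 over all pairs, and each pair's ratio was set against it with an exact interval. The interval lay above the median in 423 pairs (1.5% of all) and below it in 755 (2.67%). Together these are 4.17% of pairs, where intervals at 95% may leave out at most 5% by counting error alone. Among the 2961 pairs with a mean rank under 25 there were 0 above and 0 below. The pooled share therefore cannot show whether differences exceed the error of counting. Of the 3768 pairs higher in eWAT by rank, 337 (8.94%) had an interval above the median ratio. Of the 3304 pairs higher in iWAT, 464 (14.0%) had an interval below it. The same tags set the ranks, so these shares describe pairs already chosen for their difference and do not separate a change from counting error in any single pair. The median ratio itself fell from 1.17 in pairs with a mean rank under 25 to 1.03 in those above 75. Set against the median of their own class, the strongest pairs split into 215 above and 242 below, in place of 139 and 369.

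The pairs with the largest change towards eWAT were found on 8 chromosomes. The first lay on chromosome 5 at 4349649 to 4349869, with 36 tags in eWAT against 10 in iWAT. Its rank was 91.1 in eWAT and 0.87 in iWAT, and its ratio stood at 3.32 times the median (1.62 to 7.51). The brown fat list held no site there. The next, on chromosome 6 at 82747511 to 82747731, had 35 tags in eWAT and 10 in iWAT, and brown fat had 14. A pair on chromosome 4 at 40832089 to 40832309 had 40 tags in eWAT and 11 in iWAT, with no site in BAT. The one on chromosome 5 at 91041331 to 91041551 also had 40 and 11, but brown fat had 25 tags there, at a BAT rank of 83.0. All 10 had 31 to 40 tags in eWAT and 10 or 11 in iWAT, so each was a strong eWAT site whose partner stood at the foot of the iWAT list. Brown fat listed 4 of the 10, and at 3 of those its rank was nearer to that of eWAT.

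The largest changes towards iWAT lay on 10 chromosomes. At the head was chromosome 16 at 86159502 to 86159724, with 41 tags in iWAT against 12 in eWAT, and 26 in BAT. Its rank was 94.6 in iWAT, 3.48 in eWAT and 84.5 in BAT, and its iWAT tags stood at 3.70 times the median ratio (1.91 to 7.74). On chromosome X at 74915373 to 74915595 there were 38 tags in iWAT, 12 in eWAT and 28 in BAT. This site rose 47.8-fold above its surroundings in iWAT and 8.08-fold in eWAT. On chromosome 13 at 4118677 to 4118899 there were 35 tags in iWAT, 12 in eWAT and 13 in BAT. All 10 had 29 to 41 tags in iWAT and 12 or 13 in eWAT. Brown fat listed 7 of the 10, and at 6 of those its rank was nearer to that of iWAT.

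Rank change favours pairs whose weaker site is near the limit of its list, so pairs with at least 50 tags in 1 of the white libraries were also ordered by tag ratio. There were 1640 of them, and the interval lay above the median ratio of all pairs in 63 and below it in 173. That imbalance came with the reference: against the median ratio of these 1640 pairs, the interval lay above in 100 (6.1%) and below in 96 (5.85%). The 5% that counting error may leave out does not apply to these shares, so they show no excess over it. These pairs were taken for 50 tags in either library, and a choice by the higher count favours large ratios. The spread between libraries is also not known. The largest ratio towards iWAT was on chromosome 2 at 173177655 to 173177877, with 59 tags in iWAT, 16 in eWAT and 18 in BAT. That is 3.99 times the median (2.27 to 7.44). By rank this site stood at 98.7 in iWAT, 66.0 in BAT and 37.0 in eWAT. On chromosome 13 at 68931988 to 68932210 iWAT had 54 tags, eWAT 18 and BAT 38, at 3.25 times the median (1.88 to 5.89). The largest ratio towards eWAT was on chromosome 8 at 35251825 to 35252045, with 61 tags in eWAT against 20 in iWAT, and 24 in BAT. That is 2.82 times the median (1.68 to 4.93). On chromosome 17 at 36621735 to 36621955 eWAT had 79 tags, iWAT 31 and BAT 55, at 2.35 times the median (1.53 to 3.69), although both ranks were high, at 99.7 and 87.2. These pairs were chosen for their ratios, so the ratios describe them and are no test.

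The pairs at the limit show how close the classes are. Just inside it, a pair on chromosome 6 at 116082059 to 116082279 had 38 tags in eWAT and 21 in iWAT, a change of 25.1 points. Just outside, one on chromosome 16 at 89617523 to 89617743 had 28 and 18, a change of 24.9. In normalized tags the pair just inside had 22.6 in eWAT and 20.7 in iWAT, and the one just outside 16.7 and 17.7. Towards iWAT, a pair on chromosome 13 at 42666297 to 42666519 had 49 tags in iWAT and 24 in eWAT and lay just within the limit, and one on chromosome 7 at 52781760 to 52781982 had 40 and 23, a change of -24.9.

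The tags and positions of the brown fat sites were not used in the choice. Its list held a site at 75.5% of all shared pairs. At pairs that moved by less than 5 points it held one at 82.0%, and at pairs higher in eWAT or in iWAT at 69.1% (67.6 to 70.6) and 69.4% (67.8 to 71.0). Pairs that differed between the white depots were therefore listed in brown fat less often than pairs that moved little, by a similar share in both directions. These pairs were also weaker: the median rank of the stronger side was 66.1 in eWAT and 67.5 in iWAT, against 84.6 and 83.3 for the pairs that moved little.

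Where brown fat had a site, its median rank lay between those of the white depots. For the 2604 such pairs higher in eWAT, the median BAT rank was 52.9, where over all pairs of that set the ranks were 66.1 in eWAT and 26.1 in iWAT. The BAT rank was nearer to the eWAT rank in 56.4% (54.5 to 58.3). For the 2294 such pairs higher in iWAT, the median BAT rank was 57.9, against 21.7 in eWAT and 67.5 in iWAT. There the BAT rank was nearer to the eWAT rank in 40.5% (38.5 to 42.5), where over all 21330 pairs with a brown fat site it was nearer in 50.7%. In both sets the brown fat rank was thus more often nearer to the white depot in which the site ranked high. Both sets were chosen for a low rank in the other depot, and the median BAT rank over all pairs with a brown fat site was 69.3. The choice of pairs thus favours nearness to the higher depot, so no conclusion is drawn from it. Brown fat lists a site only above its own limit, which sets these ranks in part.

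**Figure D3:**
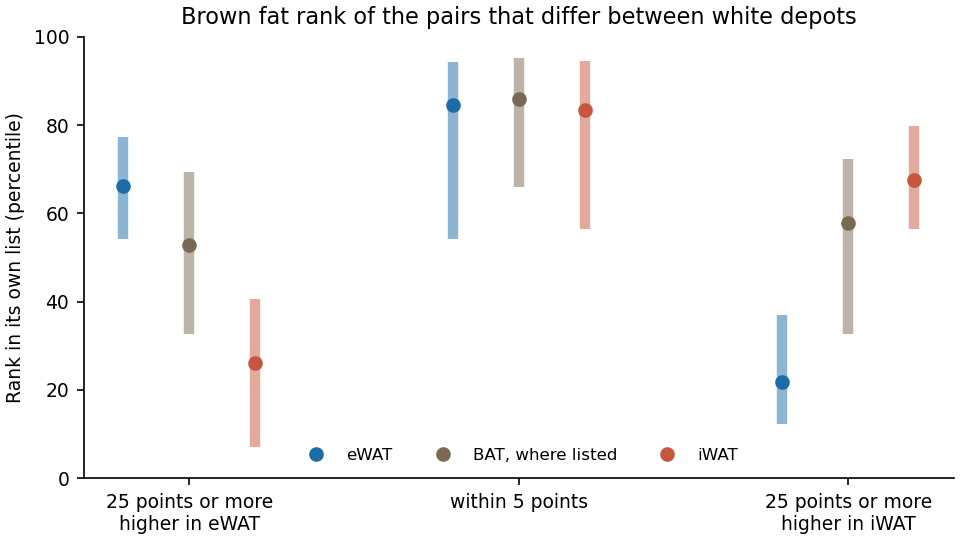
Median (point) and middle 50% (bar) of the rank in eWAT (blue), BAT (brown, only pairs with a BAT site) and iWAT (red), in percentiles of each list, for pairs 25 points or more higher in eWAT, within 5 points, or 25 points or more higher in iWAT. The BAT medians of 52.9 and 57.9 lie between the white depots in both shifted sets.

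The density of tags over the surroundings was compared as well. It comes from the same libraries, so it is not independent of the tag count. Over all pairs its median was 8.45-fold in eWAT and 11.5-fold in iWAT, and the median of the ratio within a pair was 1.33 in favour of iWAT. At pairs higher in eWAT the medians were nearly equal, at 9.24-fold and 9.07-fold. At pairs higher in iWAT they were 6.96-fold in eWAT and 13.6-fold in iWAT. The focus ratio, a measure of how tightly tags gather at the centre, had medians of 0.707 in eWAT and 0.686 in iWAT for the first set. For the second they were 0.667 and 0.727. Over all pairs they were 0.688 and 0.706, so tags were more centred in iWAT in general. In both sets the depot with the higher rank stood above its own median over all pairs, and the other depot below.

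The third question was which strong sites of 1 white depot have no counterpart nearby in the other. Of the strong sites, 1985 in eWAT (16.4%) and 2105 in iWAT (17.4%) overlapped no site of the other cut list. Most had one close by: 77.8% of the unshared eWAT sites (75.9 to 79.6) and 69.7% of the unshared iWAT sites (67.7 to 71.6) lay within 1 kb of a site of the other depot. The distant sites that were left made up 3.65% of strong sites in eWAT (3.32 to 4.00) and 5.28% in iWAT (4.89 to 5.70). Against the full list of the other depot, 348 of the 441 eWAT sites and 564 of the 638 iWAT sites were still distant. A further 69 and 53 were overlapped by a site that the cut had left out, for its tag count or by the order of ties at the limit. The lists give no tag counts where no site was called, so a missing site does not show closed chromatin.

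Distant sites were weak for strong sites. Their median was 29 tags in eWAT and 27 in iWAT, where all strong sites had 32 and 31 and the lowest had 25 and 24. The median distance to the other depot was 4490 bp for eWAT and 4540 bp for iWAT. More than 10 kb separated 156 eWAT sites (35.4%) and 201 iWAT sites (31.5%) from the other depot, and more than 100 kb separated 23 and 24. Distant sites were not isolated within their own list: 53.3% in eWAT (48.5 to 58.0) and 64.6% in iWAT (60.7 to 68.3) had a site of the same list within 5 kb. Among all strong sites this share was 38.5% and 43.0%.

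Many distant sites stood little above their surroundings. The lists hold only sites at least 4-fold above the surrounding tag density. The median was 7.60-fold for distant eWAT sites against 10.1-fold for all strong eWAT sites, and 6.53-fold against 13.5-fold in iWAT. At least 6-fold was reached by 262 of the 441 distant eWAT sites (59.4%), against 87.5% of strong sites. In iWAT it was reached by 371 of 638 (58.2%), against 93.0%. Since iWAT folds were 1.33 times those of eWAT in the median pair, an iWAT site under 5.33-fold would fall below 4-fold in eWAT at that ratio. Such sites made up 31.2% of the distant iWAT sites (27.6 to 34.9) and 4.21% of strong iWAT sites. The part of the limit on fold in the number of distant sites was not tested.

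**Figure D4:**
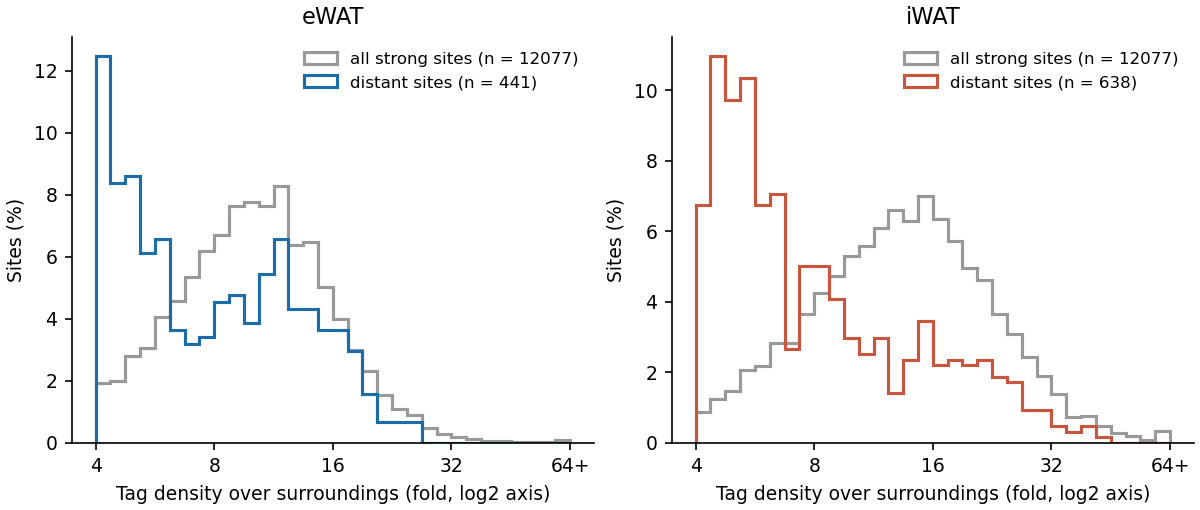
Distribution of the tag density over the surroundings (fold, log2 axis, values above 64 placed in the last bin) for all strong sites (grey) and for the distant sites of eWAT (blue, 441 sites) and iWAT (red, 638 sites), in percent of sites. Both distant sets pile up towards the lowest value allowed, 4-fold, with medians of 7.60 and 6.53 against 10.1 and 13.5 for all strong sites.

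The distant sites with the most tags showed this most clearly. In eWAT the 10 highest had 44 to 149 tags and stood 4.00 to 5.70-fold above their surroundings, so that none reached 6-fold. The 2 highest, with 149 and 125 tags, lay near the starts of chromosomes 11 and 9, at 3074113 to 3074333 and 3037928 to 3038148. Next came chromosome 2 at 13497673 to 13497893 with 58 tags, where brown fat had 48, and chromosome 12 at 47918327 to 47918547 with 49 tags, 32.4 kb from the nearest iWAT site. On chromosome 13 at 23611096 to 23611316 eWAT had 48 tags and brown fat 46, and the nearest iWAT site was 1.15 kb away. Brown fat overlapped 4 of these 10.

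In iWAT the 10 highest distant sites had 57 to 160 tags and stood 4.13 to 8.64-fold above their surroundings. The 3 highest lay near the starts of chromosomes 11, 9 and 11, at 3004473 to 3004695, 3018871 to 3019093 and 3053947 to 3054169. The 2 highest distant eWAT sites lay near the same chromosome starts, so both libraries had high sites in these stretches. At the one on chromosome 9 brown fat had 170 tags against 155 in iWAT. The only one to reach 6-fold was on chromosome 11 at 48631897 to 48632119, with 63 tags in iWAT and 39 in brown fat, 1.06 kb from an eWAT site. On chromosome X at 166416907 to 166417129 iWAT had 60 tags and brown fat 48. On chromosome 15 at 85500118 to 85500340 iWAT had 57 tags and brown fat 43, and eWAT had no site within 11.9 kb. Brown fat overlapped 4 of the 10.

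Near the 1 kb limit, the closest distant eWAT site (chromosome Y, 1714810 to 1715030, 34 tags) was 1003 bp from an iWAT site, and the strong site just short of the limit (chromosome 11, 82766491 to 82766711, 26 tags) was 993 bp away. In iWAT they were 1006 bp (chromosome 1, 79465383 to 79465605, 25 tags) and 994 bp (chromosome 7, 135673228 to 135673450, 27 tags).

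Brown fat overlapped distant sites of iWAT more often than those of eWAT. The shares were 51.9% (47.9 to 55.8) and 42.0% (37.3 to 46.7), where strong sites as a whole were overlapped at 82.1% and 82.3%. Among the distant sites that were at least 6-fold above their surroundings, a limit set after the values were seen, they were 59.3% (54.1 to 64.3) in iWAT and 43.1% (37.1 to 49.4) in eWAT. Where brown fat had a site, it was among the 25% of brown fat sites with the most tags at 53.2% of the iWAT sites (47.6 to 58.6) and 36.8% of the eWAT sites (29.8 to 44.1). Over all strong sites with a brown fat site the shares were 73.2% in iWAT and 72.0% in eWAT, so both distant sets lay below them. With 1 library per depot, whether these differences between eWAT and iWAT exceed the error between libraries is not known. The median density over the surroundings was also nearer between BAT and iWAT (9.23 and 10.5-fold) than between BAT and eWAT (7.84-fold). The normalized worth of a tag was likewise nearer to that of brown fat (0.857) for iWAT (0.985) than for eWAT (0.595). The part of either in these shares, or in the larger number of distant iWAT sites, was not tested.

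Counted by brown fat, 331 distant sites of iWAT and 185 of eWAT overlapped a brown fat site. None lay within 1 kb of 234 of the 638 iWAT sites (36.7%) and 212 of the 441 eWAT sites (48.1%). Under the 6-fold limit, 220 of 371 in iWAT and 113 of 262 in eWAT overlapped one, and 112 and 124 had none within 1 kb. Which depot had the larger number without brown fat thus depended on that limit, which is looser for iWAT, where folds were higher. As a share of the distant sites, those without brown fat were more in eWAT with and without the limit. Among those at least 6-fold above their surroundings and shared with brown fat, the highest in iWAT after the site on chromosome 11 named above was on chromosome 10 at 126726418 to 126726640, with 57 tags in iWAT, 43 in brown fat and no eWAT site within 20.1 kb. The highest such eWAT site, on chromosome 3 at 59032959 to 59033179, had 42 tags in eWAT and 10 in brown fat, 61.5 kb from an iWAT site. Among those at this limit without brown fat, the highest eWAT site lay on chromosome 16 at 75961553 to 75961773, with 44 tags and no iWAT site within 118 kb. The eWAT site on chromosome 15 at 5689474 to 5689694, with 40 tags, was 68.9 kb from both other depots. An iWAT site on chromosome 6 at 65941696 to 65941918, with 38 tags, was 109 kb from both.

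The last question was whether differing sites lie together along the genome. Of 66 neighbouring pairs less than 1 kb apart that had both moved by 25 points or more, 54 (81.8%, 70.4 to 90.2) had moved the same way. At 1 to 3 kb it was 62 of 81 (76.5%, 65.8 to 85.2), and at 3 to 10 kb 149 of 242 (61.6%, 55.1 to 67.7). At 10 to 30 kb the share was 54.9% (50.2 to 59.6), at 30 to 100 kb it was 56.3% (52.1 to 60.3), and beyond 300 kb 52.1% (43.6 to 60.4). These neighbours were picked because both had moved far. Over all neighbouring pairs the rank changes were only weakly related, with Spearman's rho of 0.20 for 996 neighbours below 1 kb, 0.17 for 1264 at 1 to 3 kb and 0.05 for 4091 at 3 to 10 kb.

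**Figure D5:**
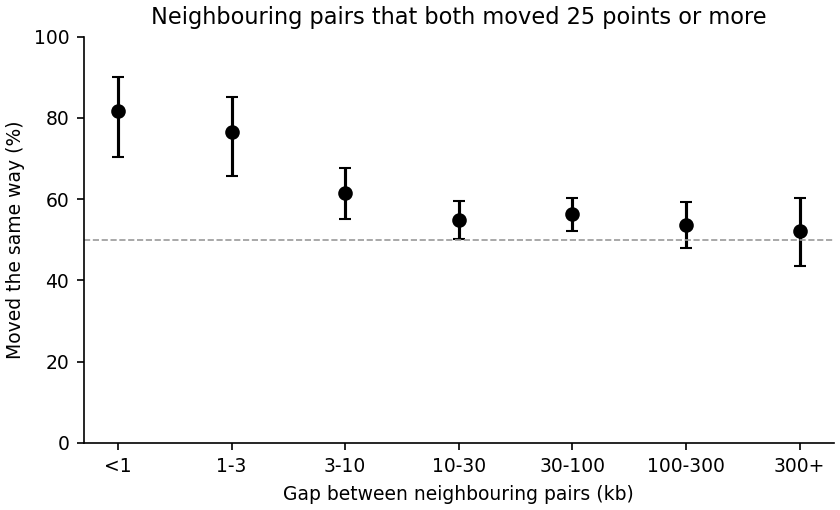
Share of neighbouring shared pairs, both changed by 25 points or more, that moved in the same direction (percent, with exact 95% intervals), by the gap between them in kb. It falls from 81.8% below 1 kb to 52.1% beyond 300 kb, where the dashed line marks 50%.

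Few windows held several members. Of the windows of 100 kb with any member, 2958 held 1 pair or distant site leaning to eWAT, and 11 held 4, the most in eWAT. For iWAT, 2769 held 1 and 2 held 5. With the grid moved by 50 kb, the fullest window held 5 in eWAT and 6 in iWAT, so these numbers depend on where the grid starts. The windows below were picked for these numbers, which are no finding in themselves. The eWAT windows were 121200001 to 121300000 and 120700001 to 120800000 on chromosome X, and 127500001 to 127600000 on chromosome 1. In the first, eWAT ranked higher in all 7 pairs, by a median of 36.9 points, and both lists held 9 sites. The largest change there was a pair on chromosome X at 121215634 to 121215854, with 27 tags in eWAT against 11 in iWAT, and 15 in BAT.

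In the chromosome 1 window, eWAT ranked higher in 4 of 5 pairs, by a median of 52.0 points. Its pair at 127559983 to 127560203 had 38 tags in eWAT against 15 in iWAT, and 22 in BAT, and beside it, at 127561356 to 127561576, lay a distant eWAT site with 26 tags. In the other window on chromosome X, eWAT ranked higher in all 5 pairs, and the pair at 120760933 to 120761153 had 37 tags in eWAT against 12 in iWAT, and 27 in BAT. Brown fat had a site at all 17 pairs of the 3 eWAT windows, where 75.5% of all shared pairs had one.

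The iWAT windows were 109400001 to 109500000 on chromosome 10, and 129100001 to 129200000 and 139800001 to 139900000 on chromosome 6. In the first, 3 of 5 pairs ranked higher in iWAT by 25 points or more, and 2 distant iWAT sites with 37 and 30 tags lay within 1 kb of each other at 109463169 to 109464201. The other 2 pairs there were strong in both depots, with 48 and 45 tags, and 40 and 30 tags, in eWAT and iWAT. The window at 129100001 held 4 distant iWAT sites, of 25 to 43 tags, among 7 pairs whose median change was -0.34 points. The window at 139800001 held 4 pairs, all higher in iWAT by 25 points or more. One of them, at 139857848 to 139858070, had 40 tags in iWAT, 14 in eWAT and 18 in BAT. Brown fat had a site at 13 of the 16 pairs of the iWAT windows. A window could thus hold differing sites and shared strong sites side by side.

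By chromosome, the share of pairs at least 25 points higher in eWAT ran from 10.0% on chromosome 11 to 16.2% on chromosome 14 among autosomes, against 13.3% over all. For iWAT it ran from 10.2% on chromosome 4 to 14.0% on chromosome 15, against 11.7%. Chromosome X gave 14.6% and 12.7%. Chromosome Y stood apart: of its 37 pairs, 11 (29.7%) were higher in eWAT and none in iWAT, with a median change of 20.3 points. The median Y pair had 36 tags in eWAT and 22 in iWAT, where over all pairs the medians were 21 and 20. On Y, eWAT held 32 strong sites against 15. This excess is one of rank and of tags as counted. At 0.595 normalized tags per tag in eWAT and 0.985 in iWAT, the excess of eWAT tags in the median Y pair does not remain. All groups were from males, and the cause was not tested. Without chromosomes X and Y, 3688 pairs were higher in eWAT and 3244 in iWAT.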

How the data were processed

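Per the submitters' processing notes, STAR, HOMER and the build mm9 were used, without roles, versions or settings. Per the file headers, each deposited list gives a normalized tag count (used as a signal), a focus ratio (a fraction), a findPeaks score, a fold (ratio) over the surroundings, a p-value against the surroundings (not used here) and a clonal fold. With a tolerance of 0.05 (0.005 below 10), 99.9% of tag counts in both white lists were whole multiples of 1 step, from which tags were computed. Each white list was cut to the length of the brown fat list, ties going by score and then position. A site was paired with the partner it overlapped most. Tag ratios have exact conditional binomial intervals. Pairing and distances were tested on simulated data. The named sites are, per direction, the 10 largest rank changes, the 5 largest ratios with 50 tags or more and the 3 fullest windows, per list the 10 highest distant sites, and those at each limit. Others named (distant sites at least 6-fold above their surroundings, and sites within windows) were chosen after their values were seen. Members and lists were chosen with earlier results of these data known. Gene lists and motifs need an mm9 reference and were not analysed here. The tools were scipy 1.17.1, pandas 2.3.3, numpy 2.4.6 and Python 3.11.15.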

Additional observations from a re-analysis of the deposited data

How the results depend on the processing

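Of 70 values under 24 other settings, 35 stayed within the counting interval of a share or within 1.5 times a count. The share of sites found in the other white depot was 56.0% for iWAT with full lists, 60.1% in both directions with the upper 50% of each cut list, 50.5% when 50% of the narrower site had to overlap, 69.4% for centres within 500 bp, 55.8% when ranked by fold and 54.9% with sites at least 6-fold above their surroundings (43443 per list). At 50 points, 655 and 641 pairs were higher in eWAT and iWAT. Distant strong sites numbered 1966 in eWAT and 2291 in iWAT when ranked by fold, 262 and 371 at 6-fold or more, 210 and 303 at 5 kb, 156 and 201 at 10 kb, and 55 and 102 in the top 10%. They were more in iWAT in every setting run. Brown fat lay within 1 kb of 77.4% and 78.2% of the pairs higher in eWAT and iWAT and of 51.9% and 63.3% of the distant sites. The top 50% of its list overlapped 36.7%, 40.7%, 25.6% and 38.9% of these. Settings added after seeing the data (ties broken by score, a fold limit and a 50-point limit for the brown fat shares) gave 59.3% for distant iWAT sites at 6-fold or more and 71.5% for pairs 50 points higher in eWAT. The fullest window of 1 Mb held 11 members in eWAT and 12 in iWAT. No gene or motif alternative was run, as no mm9 reference was used. No paired analysis was possible because each depot had 1 library.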
